A study of Mus musculus with 19 samples.

Results

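The transcripts described here are those of 6 dual specificity phosphatases that switch off MAP kinases: Dusp1, Dusp2, Dusp4, Dusp5, Dusp6 and Dusp10. They were taken by gene name, in a choice made with earlier results of these data known, from the 25639 genes measured in tumour-infiltrating T cells of mouse liver metastases, and all 6 were present in the tables of both cell types. The study sorted CD8 T cells and CD4 T cells from metastases on day 30 after Venus-AKTPM/LOH colorectal cancer cells had been injected into the spleen, and made a bulk RNA-seq library from each sort. All mice carried floxed Tet2, the gene of an enzyme that oxidises methylated cytosine. The control animals were Tet2fl/fl (3 animals). In Vav1CreTet2KO mice (3 animals) Cre is driven by the Vav1 promoter, which is active across blood cells, so that T cells and other leukocytes of the tumour can both lack Tet2. In Cd4CreTet2KO mice (5 animals) Cre is driven by the Cd4 promoter, which is active in developing T cells, CD8 cells included. The 19 libraries numbered 3 Tet2fl/fl, 3 Vav1CreTet2KO and 4 Cd4CreTet2KO among CD8 cells, and 3 of each genotype among CD4 cells, and 8 of the 11 animals gave both cell types. Library names give each replicate of a group an animal number of its own.

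MAP kinases (ERK, p38 and JNK) carry the signal of the T cell receptor and of stress to the nucleus, and are active while a threonine and a tyrosine of their activation loop are phosphorylated. Dual specificity phosphatases of this family remove both phosphates. Several of their genes are themselves switched on within minutes to hours by the kinases they inactivate, so that their transcripts are a widely used sign of recent signalling as well as parts of a negative feedback loop. Dusp1, Dusp2, Dusp4 and Dusp5 encode nuclear enzymes that are induced by activation. Dusp6 encodes a cytoplasmic enzyme selective for ERK, and Dusp10 an enzyme with a preference for JNK and p38.

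The promoters of Dusp1 and Dusp5 are shown because, of the promoters at hand, they alone matched a whole CRE or a CArG box (defined below). These are among the known elements through which MAP kinases act on feedback genes. RefSeq promoter sequences (GRCm38.p6, 250 bases before to 50 after the start site) were at hand for 5 of the 6 members, Dusp4 being the one without an entry. The lines below give the 250 bases before the start site, 5′ to 3′ in the direction of the gene, at chr17:26508473-26508722 (minus strand) for Dusp1 and chr19:53528895-53529144 (plus strand) for Dusp5. Capitals mark matches to the cyclic AMP response element (CRE, TGACGTCA), to its core TGACG on either strand, or to the CArG box bound by serum response factor.
Dusp1: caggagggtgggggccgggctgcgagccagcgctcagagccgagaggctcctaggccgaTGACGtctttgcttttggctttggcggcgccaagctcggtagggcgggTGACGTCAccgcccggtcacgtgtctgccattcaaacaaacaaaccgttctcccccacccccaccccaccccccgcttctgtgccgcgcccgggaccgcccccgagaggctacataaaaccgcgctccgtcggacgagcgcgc
Dusp5: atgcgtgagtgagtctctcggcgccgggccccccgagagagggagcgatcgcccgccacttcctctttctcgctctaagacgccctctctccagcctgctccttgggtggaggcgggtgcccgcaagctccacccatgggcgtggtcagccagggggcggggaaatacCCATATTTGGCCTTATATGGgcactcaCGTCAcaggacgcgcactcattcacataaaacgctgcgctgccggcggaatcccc
Dusp1 held a whole CRE that begins 143 bases before the start site and a separate TGACG that begins 191 bases before it. Dusp5 held 2 adjoining CArG boxes, beginning 82 and 72 bases before the start site, and the core on the opposite strand 55 bases before it. Dusp2 held that core 6 bases after the start site, and no match was found in the windows of Dusp6 and Dusp10. Among 32851 promoters of the same length, 1.79% held the CRE, 20.8% its core (which the CRE contains), 1.63% a CArG box and 7.81% an AP-1 element (TGANTCA), which none of the 5 members had. These matches describe letters in a window and do not show binding. No other element was searched for, so windows without a match may hold other elements that respond to MAP kinases.

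Reads on genes ranged from 707866 to 20327809 per library, and the members rested on 52 to 23134 reads in CD4 libraries and 90 to 12349 in CD8 libraries, where reads were recovered from RPKM (reads divided by the length of the gene and by the size of the library). CD8 Vav1CreTet2KO replicate 1 had odd numbers in 50.6% of its low counts, against 13.1% to 25.3% in the other CD8 libraries, so its reads may be counted in another unit, which the sources used here do not give. The shallowest was CD4 Vav1CreTet2KO replicate 1, whose values rest on 52 reads for Dusp6 and 740 for Dusp5. Tet2 stood at 6.57 to 8.06 RPKM in CD8 Tet2fl/fl, 2.93 to 6.28 RPKM in CD8 Vav1CreTet2KO and 3.01 to 7.57 RPKM in CD8 Cd4CreTet2KO, and in CD4 cells at 3.87 to 7.02, 2.77 to 5.65 and 4.53 to 7.28 RPKM in the same order. Such whole-gene values cannot show whether an exon was lost. The sorted cell types carried their markers: Cd8a stood at 99.9 RPKM or more in every CD8 library and at no more than 0.792 RPKM in CD4 libraries, and Cd4 at 39.5 RPKM or more in every CD4 library and at no more than 7.68 RPKM in CD8 libraries. By genotype (Tet2fl/fl, Vav1CreTet2KO, Cd4CreTet2KO), Cd8a in CD8 cells stood at 179 to 230, 103 to 169 and 99.9 to 119 RPKM. Cd3e stood there at 202 to 298, 148 to 200 and 131 to 180 RPKM. Both were thus lower in every knockout library than in every control. Cd8b1 overlapped, at 156 to 198, 161 to 201 and 128 to 182.5 RPKM. The summed T cell markers also overlapped (646 to 922, 595 to 1174 and 426 to 676 RPKM). The part of this in the results below was not tested. CD8 Cd4CreTet2KO replicates 1 and 2 stood apart, with all 9 macrophage markers at 1 RPKM or more and a sum of 338 and 179 RPKM, and with all 3 neutrophil markers (S100a8, S100a9 and Csf3r) at 1 RPKM or more and a sum of 84.4 and 48.0 RPKM, against 0.0242 to 2.78 RPKM in the other 8. They are called macrophage-marked here. In the other 8 CD8 libraries 3 to 7 of the 9 reached 1 RPKM and the sum was 8.43 to 74.0 RPKM, with C1qa, C1qb and C1qc at 0 in replicate 3 of the same group. The 7 dendritic cell markers summed to 22.1 to 181 RPKM in CD8 Tet2fl/fl, 483 to 1730 RPKM in CD8 Vav1CreTet2KO and 164 to 1340 RPKM in CD8 Cd4CreTet2KO, with Cd209a at 0 in CD8 Vav1CreTet2KO replicate 1. In CD4 cells these sums were 39.2 to 110 RPKM in Tet2fl/fl, 217 to 455 RPKM in Vav1CreTet2KO, where Flt3 and Xcr1 were at 0 in replicate 1, and 37.98 to 104 RPKM in Cd4CreTet2KO. The MHC class II gene H2-Ab1, 1 of the 7, held a large part of these sums. It alone stood at 12.2 to 114, 289 to 1256 and 101 to 817 RPKM in CD8 cells, in the order Tet2fl/fl, Vav1CreTet2KO and Cd4CreTet2KO. In CD4 cells it stood at 21.4 to 44.8, 87.1 to 309 and 17.6 to 50.7 RPKM. CD4 macrophage sums were 4.85 to 87.9 RPKM in Tet2fl/fl (1 to 8 of the 9 at 1 RPKM or more), 35.1 to 109 RPKM in Vav1CreTet2KO (5 or 6 of 9, with Adgre1, C1qb and C1qc at 0 in replicate 1 and C1qb in replicate 2) and 6.37 to 17.6 RPKM in Cd4CreTet2KO (2 to 4 of 9, with C1qa at 0 in replicates 1 and 3). CD4 neutrophil sums were 0.164 to 0.319, 1.18 to 6.03 and 0.116 to 0.459 RPKM in the same order. Only 1 of the 3 neutrophil markers reached 1 RPKM in CD4 Vav1CreTet2KO replicates 1 and 3, with S100a8 at 0 in replicate 1. In the other CD4 libraries 0 of 3 did. The part of these cells in the results below was not tested except where values without a library are given.

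None of the 6 phosphatase genes passed at an adjusted p under 0.05 in any comparison of genotypes, by limma within CD8 cells, by edgeR within CD4 cells or by limma for the difference of effects between them. In CD4 cells DESeq2 and edgeR without a filter each called Dusp1 once and Dusp4 once, as given below. What the data hold is therefore a set of high and variable transcripts, of which, within a cell type, Dusp1 in CD4 Vav1CreTet2KO against Tet2fl/fl and Dusp4 between the CD4 knockouts had the 95% intervals farthest from 0, and between cell types Dusp4 in the difference of Cd4CreTet2KO effects. All 6 passed the filter on low values in every comparison. In bulk libraries fewer cells that carry a transcript and less of it per cell cannot be told apart.

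Per kilobase of gene the nuclear, activation-induced members had higher means than the others in both cell types. In CD8 cells the mean over 10 libraries was 86.3 RPKM for Dusp1, 81.5 for Dusp5, 60.0 for Dusp2 and 35.2 for Dusp4, against 14.6 for Dusp10 and 12.2 for Dusp6. In CD4 cells the mean over 9 libraries was 149 RPKM for Dusp1, 105 for Dusp5, 65.6 for Dusp4, 42.1 for Dusp2, 28.3 for Dusp10 and 8.26 for Dusp6. The order did not hold in every library, since Dusp4 lay below Dusp10 in 3 CD8 libraries and 1 CD4 library and Dusp2 below Dusp10 in 2 CD4 libraries. Dusp1 thus exceeded 98.8% of the genes detected in CD8 cells and 99.3% of those in CD4 cells, and Dusp6 88.9% and 84.2%. The spread over libraries was widest in CD8 cells for Dusp4, with a highest value 13.9 times the lowest, and for Dusp6, likewise 13.9 times. Dusp2 and Dusp10 in CD4 cells were the steadiest, with ratios of 2.03 and 2.16.

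**Figure D1:**
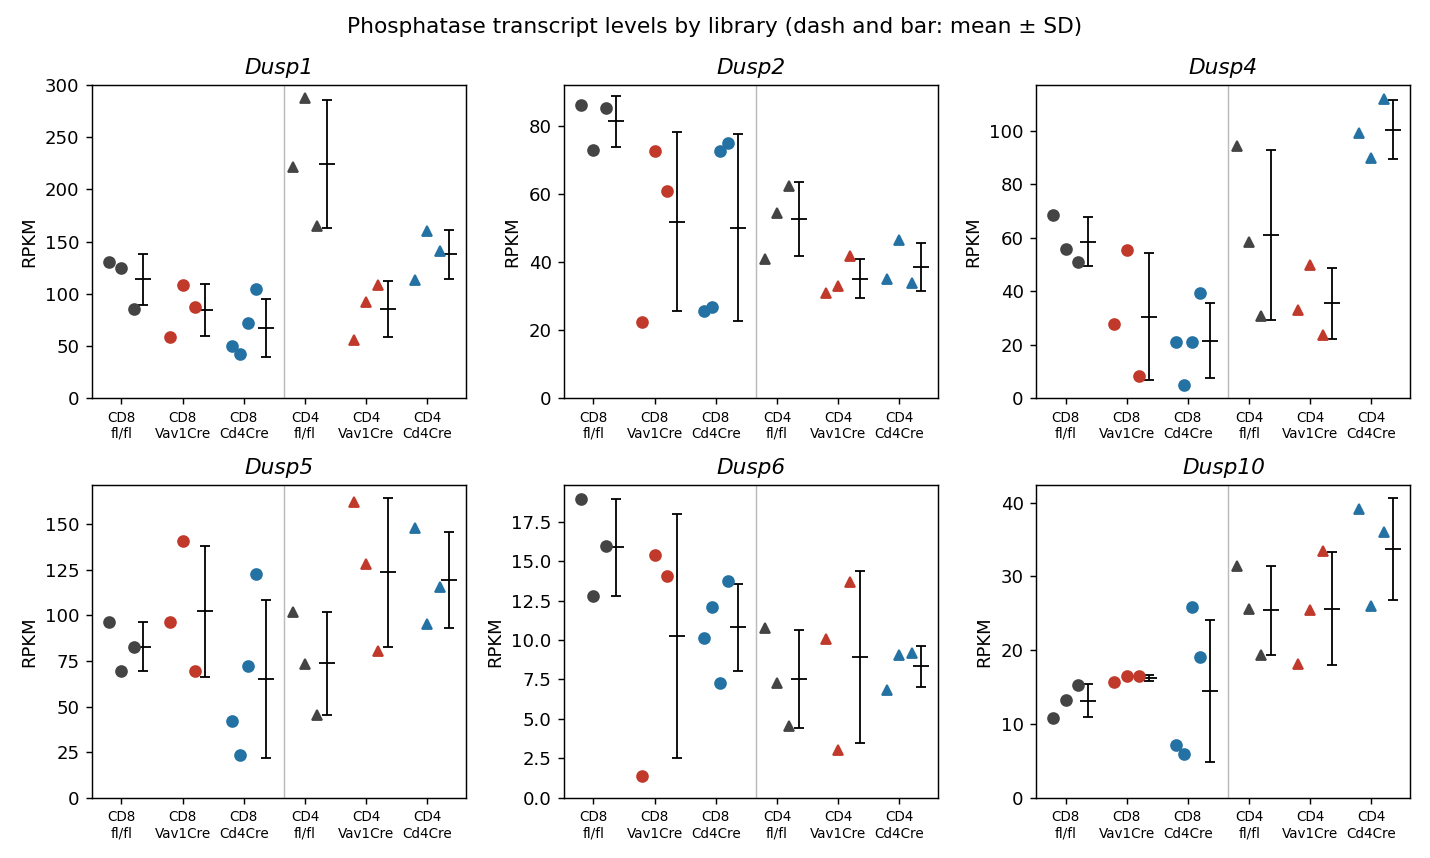
RPKM (linear axis from 0) of the 6 phosphatases in each of the 19 libraries, with CD8 libraries as circles, CD4 libraries as triangles, grey for Tet2fl/fl, red for Vav1CreTet2KO and blue for Cd4CreTet2KO; dashes and bars give the mean and SD of each group. Dusp1 is highest in CD4 Tet2fl/fl, where its 3 values lie above every other library, and Dusp4 is high in CD4 and low in CD8 Cd4CreTet2KO.

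Dusp1 encodes MKP-1, a nuclear phosphatase of p38, JNK and ERK and a classical immediate early gene (ENSMUSG00000024190, chromosome 17, 26724564 to 26781102 on the minus strand as the tables give it). In CD4 cells it stood at 221, 288 and 165 RPKM in Tet2fl/fl, at 56.1, 92.1 and 108 RPKM in Vav1CreTet2KO and at 113, 160 and 141 RPKM in Cd4CreTet2KO. All 3 control animals were above all knockout animals, and every Vav1CreTet2KO value lay below every Cd4CreTet2KO value. The log2 fold change was -1.27 (SE 0.30, 95% interval -1.92 to -0.62) for Vav1CreTet2KO against Tet2fl/fl, and edgeR's quasi-likelihood test gave an adjusted p = 0.1501. Only 1 of 13554 genes, or 0.00738%, was called in that comparison. DESeq2, which called 3.35% of the genes, gave Dusp1 an adjusted p = 0.0168 with a log2 fold change of -1.26. edgeR without the filter on low counts, which called 1.9% of genes, gave an adjusted p = 0.000824. Leaving out Vav1CreTet2KO replicate 3 gave -1.55 with an edgeR adjusted p = 0.0147, when 5.68% of genes were called. The authors' deposited table gives Dusp1 a log2 fold change of -1.26 and a false discovery rate of 0.0550 there. The groups of 15.7% of the tested genes did not overlap in this comparison, and Dusp1 was the only member among them.

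For Cd4CreTet2KO against Tet2fl/fl in CD4 cells the Dusp1 log2 fold change was -0.59 (SE 0.30, 95% interval -1.23 to 0.05, edgeR adjusted p = 0.9998). Of all genes tested 0.0295% were called and 13.8% did not overlap between the groups, Dusp1 again being the only member of the latter. Between the knockouts, Vav1CreTet2KO against Cd4CreTet2KO, it was -0.68 (SE 0.30, 95% interval -1.32 to -0.03, edgeR adjusted p = 0.449), where 0.0664% of genes were called and 19.5% did not overlap. In CD8 cells Dusp1 stood at 130, 125 and 85.8 RPKM in Tet2fl/fl, at 58.5, 108 and 87.2 RPKM in Vav1CreTet2KO and at 49.7, 42.6, 71.8 and 105 RPKM in Cd4CreTet2KO. These groups overlapped, since the lowest control lay within the range of both knockouts. The log2 fold change was -0.44 (SE 0.36, 95% interval -1.22 to 0.33, limma adjusted p = 0.544) for Vav1CreTet2KO and -0.81 (SE 0.33, 95% interval -1.54 to -0.09, limma adjusted p = 0.338) for Cd4CreTet2KO. Without the 2 macrophage-marked Cd4CreTet2KO libraries, which were the lowest, the latter was -0.36. The difference between the Vav1CreTet2KO effects in CD8 and CD4 cells was 0.96 (SE 0.49, 95% interval -0.08 to 1.99, limma adjusted p = 0.560), so that the 2 effects were not shown to differ.

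Genes that respond to tissue digestion and stress had a lower summed level in the knockouts, though 0 of 20 passed in either CD4 comparison with Tet2fl/fl. The summed level of a list of 20 such genes (Hspa8, Hspa1b and Junb hold the largest shares, 17.8%, 15.4% and 12.2%) was 5176 to 7199 RPKM in CD4 Tet2fl/fl, 2001 to 3304 RPKM in CD4 Vav1CreTet2KO and 3062 to 3429 RPKM in CD4 Cd4CreTet2KO. In CD8 cells it was 4199 to 5640, 2889 to 3143 and 2004 to 3360 RPKM in the same order, so that every knockout library lay below every control in both cell types. Among the 20 genes, 13 had all CD4 Vav1CreTet2KO values below all controls and 10 had all CD4 Cd4CreTet2KO values below them, where 12.5% and 7.93% of all genes tested were lower without overlap. In CD8 cells the numbers were 6 and 8, beside 12.9% and 14% of all genes. By fold change, 18 of 20 were lower for CD4 Vav1CreTet2KO and 16 for CD4 Cd4CreTet2KO, with medians of -0.67 and -0.48 (all genes -0.16 and 0.003). For CD8 Cd4CreTet2KO 18 were lower, with a median of -0.53 (all genes -0.15). For CD8 Vav1CreTet2KO 12 were lower and 8 higher, with a median of -0.17 (all genes -0.11). The lower sum of that group was therefore not shared by the list as a whole. The CD4 Vav1CreTet2KO library with the lowest sum, replicate 1, also had the lowest Dusp1 value, and the 2 CD8 Cd4CreTet2KO libraries with the lowest sums had the lowest Dusp1 values of CD8 cells. The marker sums of dendritic cells and neutrophils were also higher in all CD4 Vav1CreTet2KO libraries than in all CD4 controls, as given above, though those of neutrophils were low (6.03 RPKM or less). The part of these shifts in the Dusp1 values was not tested.

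**Figure D2:**
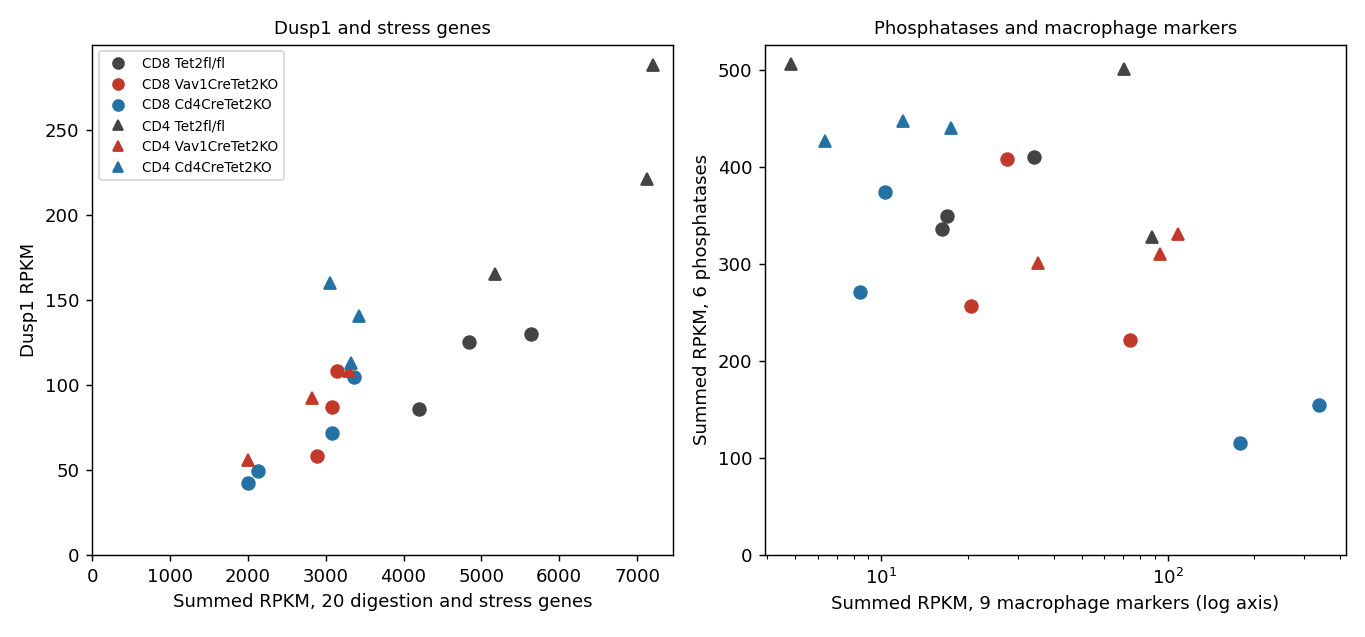
Left, Dusp1 RPKM against the summed RPKM of 20 digestion and stress genes; right, the summed RPKM of the 6 phosphatases against the summed RPKM of 9 macrophage markers (log axis), 1 point per library, circles for CD8 and triangles for CD4. The control libraries (grey) lie at 4199 RPKM or more on the left axis, and the CD8 Cd4CreTet2KO libraries with 338 and 179 RPKM of macrophage markers hold the lowest phosphatase sums, 155 and 116 RPKM.

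Dusp2 encodes PAC-1, a nuclear phosphatase found mainly in activated lymphocytes and myeloid cells (ENSMUSG00000027368, chromosome 2, 127178079 to 127180296 on the plus strand). In CD8 cells it stood at 86.1, 72.9 and 85.2 RPKM in Tet2fl/fl, at 22.3, 72.5 and 60.9 RPKM in Vav1CreTet2KO and at 25.6, 26.9, 72.8 and 75.0 RPKM in Cd4CreTet2KO. The controls were tight, while each knockout group held libraries near the control level and others far below it. Vav1CreTet2KO values lay below all controls, but by only the gap between 72.5 and 72.9 RPKM. The log2 fold change was -0.80 (SE 0.49, 95% interval -1.86 to 0.27, limma adjusted p = 0.423) for Vav1CreTet2KO and -0.86 (SE 0.46, 95% interval -1.86 to 0.13, limma adjusted p = 0.488) for Cd4CreTet2KO. Few libraries carried these values: without Vav1CreTet2KO replicate 1 the former was -0.28, and without the 2 macrophage-marked libraries the latter was -0.13. In CD4 cells Dusp2 stood at 41.0, 54.4 and 62.5 RPKM in Tet2fl/fl, at 30.8, 33.0 and 41.7 RPKM in Vav1CreTet2KO and at 34.9, 46.6 and 33.9 RPKM in Cd4CreTet2KO. The groups overlapped narrowly at the lowest control, and the log2 fold changes were -0.46 (SE 0.32, edgeR adjusted p = 0.624) for Vav1CreTet2KO and -0.36 (SE 0.32, adjusted p = 0.9998) for Cd4CreTet2KO.

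Dusp4 encodes MKP-2, a nuclear phosphatase of ERK and JNK induced by receptor signalling (ENSMUSG00000031530, chromosome 8, 35274451 to 35287048 on the plus strand). In CD8 cells it stood at 68.6, 55.8 and 50.8 RPKM in Tet2fl/fl, at 27.8, 55.4 and 8.27 RPKM in Vav1CreTet2KO and at 20.9, 4.93, 20.8 and 39.2 RPKM in Cd4CreTet2KO. All 4 Cd4CreTet2KO animals were below all controls, whereas Vav1CreTet2KO values ran from control level to the second lowest of all CD8 libraries. The log2 fold change for Cd4CreTet2KO was -1.68 (SE 0.62, 95% interval -3.03 to -0.33, limma adjusted p = 0.269), in a comparison where 0.509% of genes were called and 17.8% did not overlap. Without the 2 macrophage-marked libraries it was -0.99, and the 2 remaining values, 20.8 and 39.2 RPKM, still lay below all controls. For Vav1CreTet2KO it was -1.26 (SE 0.67, 95% interval -2.70 to 0.19, limma adjusted p = 0.354), and -0.55 without replicate 3. In that comparison 1.45% of genes were called and 19.9% did not overlap, with Dusp2 (lower) and Dusp10 (higher) as the members among the latter.

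In CD4 cells Dusp4 stood at 94.3, 58.3 and 30.8 RPKM in Tet2fl/fl, at 33.0, 49.8 and 23.6 RPKM in Vav1CreTet2KO and at 99.3, 89.8 and 112 RPKM in Cd4CreTet2KO. The Cd4CreTet2KO libraries were high and close together, the Vav1CreTet2KO libraries low, and the controls spread over both. Between the knockouts the log2 fold change of Vav1CreTet2KO against Cd4CreTet2KO was -1.51 (SE 0.35, 95% interval -2.26 to -0.76, edgeR adjusted p = 0.111), with no overlap. Of all genes tested 0.0664% were called there and 19.5% did not overlap, with Dusp1 and Dusp4 as the members among the latter. Macrophage, dendritic cell and neutrophil marker sums, given above, were likewise without overlap between these groups, being higher in Vav1CreTet2KO (35.1 to 109 RPKM of macrophage markers against 6.37 to 17.6 RPKM), and their part in this difference was not tested. DESeq2, which called 2.99% of genes in this comparison, gave -1.48 with an adjusted p = 0.0142, and edgeR without a filter, which called 2% of genes, gave -1.49 with an adjusted p = 0.000391. Against Tet2fl/fl the values were -0.68 (SE 0.35, edgeR adjusted p = 0.463) for Vav1CreTet2KO and 0.83 (SE 0.34, edgeR adjusted p = 0.9998) for Cd4CreTet2KO. In Cd4CreTet2KO mice Dusp4 therefore lay below the controls in CD8 cells and above their mean in CD4 cells. That difference of effects was -2.52 (SE 0.83, 95% interval -4.25 to -0.79, limma adjusted p = 0.614), where 0.0629% of the 11121 genes tested were called.

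Dusp5 encodes a nuclear phosphatase selective for ERK, which it also holds in the nucleus (ENSMUSG00000034765, chromosome 19, 53517540 to 53530862 on the plus strand). In CD4 cells it stood at 102, 73.4 and 45.6 RPKM in Tet2fl/fl, at 162, 128 and 80.5 RPKM in Vav1CreTet2KO and at 148, 95.1 and 115 RPKM in Cd4CreTet2KO. The highest control overlapped with both knockouts. Against controls the CD4 log2 fold change was 0.87 (SE 0.31, 95% interval 0.20 to 1.53, edgeR adjusted p = 0.311) for Vav1CreTet2KO and 0.79 (SE 0.31, 95% interval 0.13 to 1.45, edgeR adjusted p = 0.9998) for Cd4CreTet2KO. In CD8 cells Dusp5 stood at 96.1, 69.4 and 82.5 RPKM in Tet2fl/fl, at 96.2, 140 and 69.5 RPKM in Vav1CreTet2KO and at 41.8, 23.5, 72.4 and 123 RPKM in Cd4CreTet2KO. Both knockouts held a library above all controls, and the 2 lowest values were those of the macrophage-marked libraries. In CD8 cells the log2 fold change was 0.25 (SE 0.49, 95% interval -0.80 to 1.31, limma adjusted p = 0.818) for Vav1CreTet2KO and -0.58 (SE 0.45, 95% interval -1.56 to 0.41, limma adjusted p = 0.668) for Cd4CreTet2KO, and the sign of the latter turned, to 0.20, without those 2 libraries. Dusp5 also had, of the 6 members, the second widest difference of Cd4CreTet2KO effects between CD8 and CD4 cells, -1.32 (SE 0.63, 95% interval -2.63 to -0.01, limma adjusted p = 0.878).

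Dusp6 encodes MKP-3, the cytoplasmic phosphatase of ERK (ENSMUSG00000019960, chromosome 10, 99099093 to 99103351 on the plus strand). In CD8 cells it stood at 18.9, 12.8 and 15.9 RPKM in Tet2fl/fl, at 1.36, 15.4 and 14.0 RPKM in Vav1CreTet2KO and at 10.1, 12.1, 7.30 and 13.7 RPKM in Cd4CreTet2KO. Vav1CreTet2KO replicate 1 alone was low (1.36 RPKM, from 90 reads), and the other 2 lay within the controls. That library also had the lowest Dusp2 value of CD8 cells, the highest dendritic cell marker sum (1730 RPKM) and the deviating share of odd low counts given above, so that its 90 reads may not be in the unit of the other libraries. The log2 fold change was -0.999 (SE 0.58, 95% interval -2.25 to 0.25, limma adjusted p = 0.390) for Vav1CreTet2KO and -0.09 without replicate 1. For Cd4CreTet2KO it was -0.53 (SE 0.54, 95% interval -1.70 to 0.64, limma adjusted p = 0.754). In CD4 cells Dusp6 was low throughout, at 10.7, 7.29 and 4.56 RPKM in Tet2fl/fl, at 10.1, 3.01 and 13.7 RPKM in Vav1CreTet2KO and at 6.82, 9.03 and 9.15 RPKM in Cd4CreTet2KO. Groups overlapped, with log2 fold changes of 0.42 (SE 0.58, edgeR adjusted p = 0.837) for Vav1CreTet2KO and 0.27 (SE 0.58, adjusted p = 0.9998) for Cd4CreTet2KO.

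Dusp10 encodes MKP-5, which acts mainly on JNK and p38 (ENSMUSG00000039384, chromosome 1, 183745499 to 183807833 on the plus strand). In CD8 cells it stood at 10.9, 13.2 and 15.3 RPKM in Tet2fl/fl, at 15.7, 16.4 and 16.5 RPKM in Vav1CreTet2KO and at 7.09, 5.94, 25.9 and 19.1 RPKM in Cd4CreTet2KO. Vav1CreTet2KO values lay just above all controls, with a log2 fold change of 0.29 (SE 0.44, 95% interval -0.66 to 1.25, limma adjusted p = 0.756). The Cd4CreTet2KO libraries split, those with macrophage markers below all controls and the others above them. Their log2 fold change was -0.09 (SE 0.41, 95% interval -0.98 to 0.80, limma adjusted p = 0.960) with all 4 libraries and 0.73 without the marked ones. In CD4 cells Dusp10 stood at 31.4, 25.5 and 19.3 RPKM in Tet2fl/fl, at 18.1, 25.4 and 33.4 RPKM in Vav1CreTet2KO and at 39.1, 25.9 and 36.1 RPKM in Cd4CreTet2KO, with overlap throughout. Against controls the log2 fold change was 0.15 (SE 0.31, edgeR adjusted p = 0.890) for Vav1CreTet2KO and 0.50 (SE 0.31, adjusted p = 0.9998) for Cd4CreTet2KO.

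**Figure D3:**
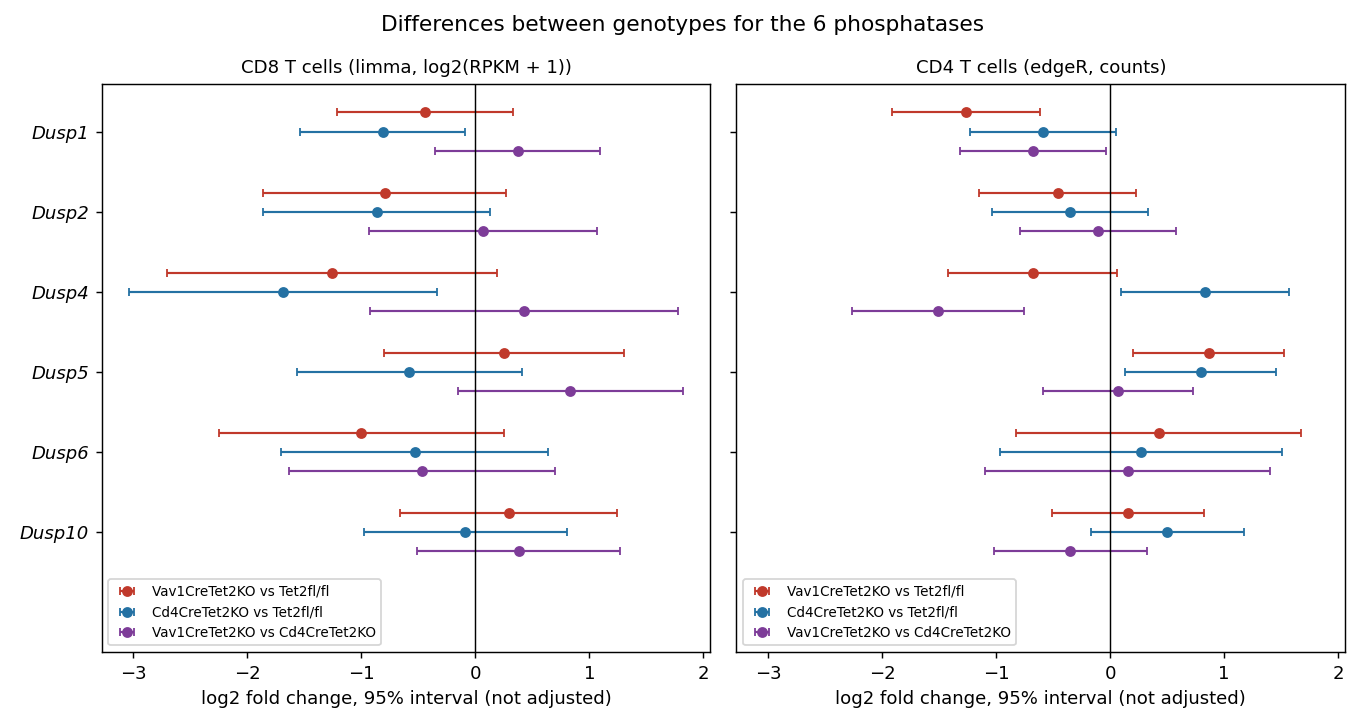
Log2 fold change of each phosphatase with its 95% interval, not adjusted for multiple tests, in the 3 comparisons of genotypes (colours), for CD8 cells (left, limma on log2(RPKM + 1), 10 libraries) and CD4 cells (right, edgeR on counts, 9 libraries). Most intervals span 0; those farthest from it are Dusp1 for Vav1CreTet2KO against Tet2fl/fl (-1.92 to -0.62) and Dusp4 between the knockouts (-2.26 to -0.76), both in CD4 cells.

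Read as a set against Tet2fl/fl, the members were lower in 4 of 6 cases for Vav1CreTet2KO and in 6 of 6 for Cd4CreTet2KO in CD8 cells, with medians of -0.62 and -0.70 beside medians of -0.11 and -0.15 over all genes tested. Without the 2 macrophage-marked libraries 4 of 6 were lower for CD8 Cd4CreTet2KO, with a median of -0.25 beside -0.18 over all genes. In CD4 cells 3 of 6 and 2 of 6 were lower, with medians of -0.15 and 0.39 beside -0.16 and 0.003 over all genes. Rescaling the CD8 RPKM values by size factors moved the median of all genes for Cd4CreTet2KO from -0.15 to 0.01, with Dusp1 at -0.60, Dusp2 at -0.65, Dusp4 at -1.48, Dusp5 at -0.37 and Dusp6 at -0.33 after it, while Dusp10 turned to 0.11. Members with an unadjusted p under 0.05 are given here beside the number of all genes tested that had one. They were Dusp1 and Dusp4 for CD8 Cd4CreTet2KO (1263 of 10224 genes) and Dusp1 and Dusp5 for CD4 Vav1CreTet2KO (1617 of 13554). For CD4 Cd4CreTet2KO they were Dusp4 and Dusp5 (339 of 13554), and between the CD4 knockouts Dusp1 and Dusp4 (1449 of 13554). In the difference of Cd4CreTet2KO effects they were Dusp4 and Dusp5 (630 of 11121). For CD8 Vav1CreTet2KO (1765 of 10224 genes), between the CD8 knockouts (647 of 10224) and in the difference of Vav1CreTet2KO effects (1022 of 11121) there were 0 members. The 2 comparisons with Tet2fl/fl in a cell type share their control libraries.

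Between the CD8 knockouts limma called 0 of 10224 genes (0%), with 647 at an unadjusted p under 0.05, while edgeR called 0 and DESeq2 62 on recovered reads. All members overlapped there, against 4.53% of genes that did not. The log2 fold changes of Vav1CreTet2KO against Cd4CreTet2KO were 0.37 for Dusp1, 0.07 for Dusp2, 0.43 for Dusp4, 0.83 for Dusp5, -0.47 for Dusp6 and 0.38 for Dusp10. Without the macrophage-marked libraries they were -0.08, -0.66, -0.26, 0.06, -0.40 and -0.43, so that 4 of the 6 turned. The difference of Vav1CreTet2KO effects between CD8 and CD4 cells likewise had 0 calls (0%) by limma, with 1022 genes at an unadjusted p under 0.05 and 4 calls by edgeR. For members other than Dusp1 it was -0.24 for Dusp2, -0.56 for Dusp4, -0.50 for Dusp5, -1.09 for Dusp6 and 0.30 for Dusp10.

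Levels in CD8 and CD4 cells can be set side by side within the 8 animals that gave both, but the tables were normalized separately, so the direction is described and not tested. Dusp10 was higher in CD4 cells in 8 of 8 animals, also after rescaling by size factors. Its log2 ratio of CD8 to CD4 ranged from -1.53 to -0.21, with a median of -0.77. Dusp2 was higher in CD8 cells in 7 of 8 (median 0.80), the exception being Vav1CreTet2KO replicate 1, and Dusp6 in 7 of 8 (median 0.70) with the same exception. Dusp1 was higher in CD4 cells in 6 of 8 animals (7 after rescaling, median -0.54), among them all 3 controls, where the ratio ranged from -1.20 to -0.77. In the 3 Vav1CreTet2KO animals its ratio was 0.06, 0.23 and -0.31, close to equal. Dusp4 was higher in CD4 cells in 6 of 8 (5 after rescaling), with log2 ratios of -2.26 and -1.51 in the 2 Cd4CreTet2KO animals, from -1.51 to 0.15 in the 3 Vav1CreTet2KO animals and from -0.46 to 0.73 in the 3 controls. Dusp5 had no common direction, being higher in CD4 cells in 5 of 8 (4 after rescaling).

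**Figure D4:**
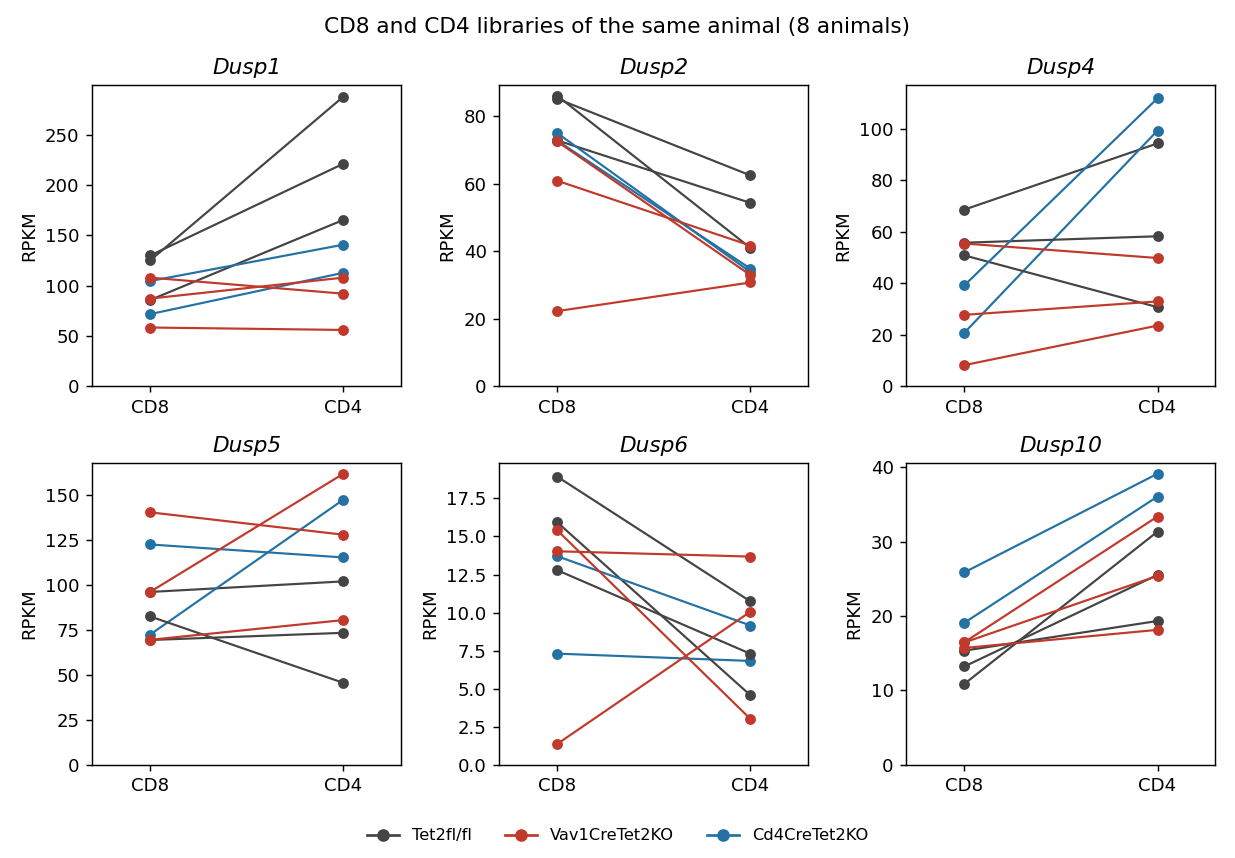
RPKM of each phosphatase in the CD8 and the CD4 library of the same animal, joined by a line, for the 8 animals with both (grey Tet2fl/fl, red Vav1CreTet2KO, blue Cd4CreTet2KO). All 8 lines rise towards CD4 for Dusp10, 7 slope down for Dusp2 and for Dusp6, and on this linear axis the 2 blue lines gain the most RPKM for Dusp4.

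Ordered by group mean, Dusp1 ran from 225 ± 61.3 RPKM (SD, n = 3) in CD4 Tet2fl/fl through CD4 Cd4CreTet2KO (138 ± 23.6, n = 3), CD8 Tet2fl/fl (114 ± 24.2, n = 3), CD4 Vav1CreTet2KO (85.4 ± 26.6, n = 3) and CD8 Vav1CreTet2KO (84.6 ± 24.9, n = 3) to CD8 Cd4CreTet2KO (67.2 ± 27.9, n = 4). Only the step from the highest group to the next was free of overlap. For Dusp4 the order was CD4 Cd4CreTet2KO (100.3 ± 11.01, n = 3), CD4 Tet2fl/fl (61.1 ± 31.9, n = 3), CD8 Tet2fl/fl (58.4 ± 9.16, n = 3), CD4 Vav1CreTet2KO (35.5 ± 13.3, n = 3), CD8 Vav1CreTet2KO (30.5 ± 23.7, n = 3) and CD8 Cd4CreTet2KO (21.5 ± 14.0, n = 4). Neighbours were free of overlap only below CD8 Tet2fl/fl, by the gap between 50.8 and 49.8 RPKM. CD8 Vav1CreTet2KO, further down the order, still reached 55.4 RPKM, within the CD8 controls. CD8 Tet2fl/fl was highest for Dusp2 (81.4 ± 7.39, n = 3), clear of the next group, CD4 Tet2fl/fl (52.6 ± 10.9, n = 3), and for Dusp6 (15.9 ± 3.08, n = 3), without a clear step. For Dusp2 a group further down, CD8 Cd4CreTet2KO, reached 75.0 RPKM, above the lowest CD8 control at 72.9 RPKM. CD4 Cd4CreTet2KO was highest for Dusp10 (33.7 ± 6.92, n = 3), where the step between CD4 Tet2fl/fl (25.4 ± 6.01, n = 3) and CD8 Vav1CreTet2KO (16.2 ± 0.435, n = 3) separated the cell types by mean. For Dusp5 all neighbours overlapped, from CD4 Vav1CreTet2KO (123 ± 40.9, n = 3) to CD8 Cd4CreTet2KO (65.1 ± 43.3, n = 4).

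The members did not vary as 1 block across libraries. Correlations here are over log2(RPKM + 1) and are descriptions, since all genes of a library share its depth and scaling. Depth differed between libraries, from 707866 reads on genes in CD4 Vav1CreTet2KO replicate 1 to 20327809 in CD8 Cd4CreTet2KO replicate 2. In the 10 CD8 libraries Dusp1 and Dusp2 had r = 0.86 and Dusp4 and Dusp5 r = 0.75 (0.87 once group means were subtracted), whereas Dusp5 and Dusp6 had r = -0.01. In the 9 CD4 libraries Dusp4 and Dusp5 had r = 0.37 (0.80 with group means subtracted), and Dusp2 and Dusp5 had r = -0.94 (-0.91). That inverse pattern was not found in CD8 cells, where Dusp2 and Dusp5 had r = 0.58 (0.67).

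Among 8291 genes with at least 1 RPKM in 5 or more libraries of each table, those most like Dusp4 over the 19 libraries were Rel, which encodes the NF-κB subunit c-Rel (r = 0.91), Vps54 (0.91) and Sfpq (0.89). With group means subtracted their r was 0.91, 0.88 and 0.91. Rel stood at 16.8 to 18.0 RPKM in CD8 Tet2fl/fl, 6.02 to 18.7 RPKM in CD8 Cd4CreTet2KO and 17.6 to 21.3 RPKM in CD4 Cd4CreTet2KO. Those most like Dusp5 were Nr4a3, an orphan nuclear receptor induced by T cell receptor signals (r = 0.88, or 0.93 with group means subtracted), Tgif1 (0.88, or 0.89) and the AP-1 gene Fosl2 (0.86, or 0.94). Nr4a3 stood at 7.24 to 136 RPKM in CD8 Cd4CreTet2KO and at 67.4 to 210 RPKM in CD8 Vav1CreTet2KO, against 55.9 to 69.6 RPKM in CD8 Tet2fl/fl. The nearest to Dusp1 were Kdm2a (0.87), B4galnt4 (0.87) and Ldb1 (0.86), and to Dusp10 Itpkb (0.85), Zc3hav1 (0.85) and Pim1 (0.84). With group means subtracted those of Dusp1 fell to 0.53, 0.78 and 0.68, and those of Dusp10 to 0.81, 0.73 and 0.81. Dusp6 was nearest to Pxk (0.86), Trappc9 (0.85) and Nup205 (0.85), and Dusp2 had the weakest neighbours before group means were subtracted, Larp1 (0.79), Lactb2 (0.79) and Slc28a2 (0.78). After it those of Dusp6 had 0.90, 0.89 and 0.83, and those of Dusp2 0.76, 0.72 and 0.73.

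**Figure D5:**
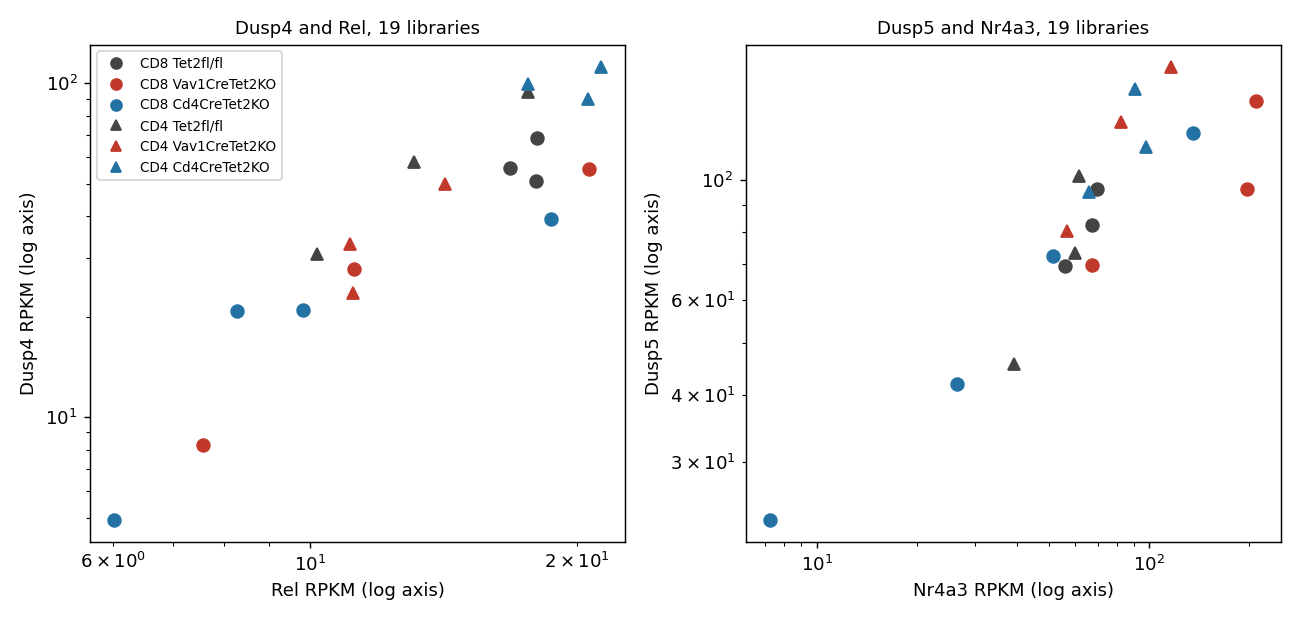
RPKM of Dusp4 against Rel (left) and of Dusp5 against Nr4a3 (right), both axes logarithmic, 1 point per library (circles CD8, triangles CD4; grey Tet2fl/fl, red Vav1CreTet2KO, blue Cd4CreTet2KO). Over the 19 libraries r is 0.91 on the left and 0.88 on the right on the log2(RPKM + 1) scale.

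Other parts of the same pathways gave few calls. Of 11 further genes of the dual specificity phosphatase family, such as Dusp16, Dusp22 and Styx, 6 were tested in CD8 and 10 in CD4 cells and 0 passed in any comparison. Their summed level, 11.2 to 21.5 RPKM over all libraries, was below that of Dusp1 alone. None of 4 others, Dusp11, Dusp12, Dusp23 and Dusp28, passed either. The Sprouty and Spred genes, which encode inhibitors of the Ras to ERK step, were lower in 4 of 4 tested for both knockouts in CD8 cells, with medians of -1.32 and -0.90 beside -0.11 and -0.15 over all genes, and 0 passed. Their summed level was 23.3 to 48.8 RPKM in CD8 Tet2fl/fl, 9.67 to 20.04 RPKM in CD8 Vav1CreTet2KO and 8.36 to 15.3 RPKM in CD8 Cd4CreTet2KO, without overlap with the controls. In CD4 cells 4 of 5 were lower for each knockout and 0 passed. The CD4 sums were 8.03 to 19.2 RPKM in Tet2fl/fl, 0.0798 to 13.9 RPKM in Vav1CreTet2KO, which overlapped with the controls, and 6.33 to 7.78 RPKM in Cd4CreTet2KO, just below them.

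In the p38 and JNK cascades 1 of 17 tested fell in CD8 Vav1CreTet2KO: Gadd45g, an activator of the kinase MEKK4 upstream of p38 and JNK, by 2.34 on the log2 scale (SE 0.33, limma adjusted p = 0.00993). Transcripts induced by ERK, such as Fos, Egr1 and Myc, gave 0 calls in 17 tested in CD8 and 19 in CD4 cells. Their summed level was 705 to 869 RPKM in CD4 Tet2fl/fl, 360 to 545 RPKM in CD4 Vav1CreTet2KO and 614 to 695 RPKM in CD4 Cd4CreTet2KO. That is the order seen for Dusp1 in CD4 cells. By fold change 14 of 19 were lower for CD4 Vav1CreTet2KO, but for CD4 Cd4CreTet2KO 10 were higher and 9 lower (median 0.004, all genes 0.003). In CD8 cells the sums overlapped, at 503 to 562 RPKM in Tet2fl/fl, 465 to 683 RPKM in Vav1CreTet2KO and 285 to 717 RPKM in Cd4CreTet2KO. Of these transcripts Fos, Fosb, Egr1, Ier2 and Ier3 are also in the stress list. That list had 2 of 20 fall in CD8 Vav1CreTet2KO, the heat shock genes Hspa1a and Hspa1b, and 1 in CD8 Cd4CreTet2KO, Hsph1. Among 11 genes induced by NFAT and receptor signals 3 fell in CD8 Vav1CreTet2KO (Tnfrsf9, Tox2 and Tox) and 2 in CD8 Cd4CreTet2KO (Tox2 and Tox), and in CD4 cells 0 passed. Of all genes tested 0.998% fell in CD8 Vav1CreTet2KO and 0.44% in CD8 Cd4CreTet2KO, and 0% and 0.0221% in CD4 cells. Every call named in this paragraph was lost without CD8 Tet2fl/fl replicate 1, when limma called 0 genes in both comparisons, and those of Cd4CreTet2KO also with the replicate block, without Tet2fl/fl replicate 3, without Cd4CreTet2KO replicate 2 and without both macrophage-marked libraries, each of which gave 0 calls. No gene of these lists rose in any comparison.

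Some members lie over other genes. Per the GRCm38 annotation, whose Dusp1 model has the same span of 56539 bases as in the tables, Dusp1 overlaps Ergic1 on the other strand and further gene models, Dusp5 an unnamed gene on the other strand and Dusp10 1700056E22Rik on the other strand. The library kit keeps strand, but no source used here names the strand used in counting, so reads of these genes may be mixed with those of the overlapping ones. The coordinates printed with each gene differ from that annotation for every member, and no source used here explains the shift. GRCm38 places Dusp1 at 26505590 to 26562128 and not at 26724564 to 26781102. For Dusp4 it gives 34807297 to 34819894 and not 35274451 to 35287048. The promoter coordinates given above are those of GRCm38.p6 and are therefore not on the scale of the gene coordinates.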

How the data were processed

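The labels' protocols describe T cells freed from tumours by enzymatic digestion, enriched on a density gradient and CD45 beads, sorted on CD3ε, CD4 and CD8α, and made into stranded total RNA libraries. The authors deposited read counts with RPKM values for CD4 libraries and RPKM values alone for CD8 libraries, per the file headers. Fold changes and false discovery rates deposited by the authors were copied for comparison only. The submitters' processing notes name the builds GRCm38 and mm10, though the printed gene coordinates differ from the GRCm38 annotation. No source used here names the aligner or counter. The 18 other per-sample columns were not used.

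CD8 values were tested with limma 3.58.1 (trend, robust) on log2(RPKM + 1), after a filter that asked for 1 RPKM or more in 3 or more libraries, all 10 libraries being fitted together. The pseudocount understates changes of low genes. CD4 counts were tested with edgeR 4.0.16 (quasi-likelihood, robust, TMM, filterByExpr with minimum count 10 and total 15), with all 9 libraries in 1 fit, and differences of effects with limma on the RPKM values of all 19. P-values were adjusted by Benjamini-Hochberg over all genes tested, with calls under 0.05. RPKM times the gene length implied by CD4 counts and RPKM gave whole reads (100% of 134905 CD8 values within 0.01), which served for depth and as alternatives. The reads carry no molecular identifiers here, so precision from depth covers counting error only.

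The 6 members and the gene lists were chosen with earlier results of these data known. All members are named, with the called genes of each list (up to 4 by smallest p) and, for likeness, the 3 genes of highest r. Library names tie CD8 and CD4 libraries of 8 animals together (correlations of their deviations from group means -0.08 to 0.41), so the animal was a block in an alternative fit. Other alternatives were DESeq2 1.42.0, RLE size factors, a pseudocount of 0.1, no filter, fewer groups in the fit, rescaled RPKM and left-out libraries. Each test was tried on simulated data.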

Additional observations from a re-analysis of the deposited data

Results flagged for a closer look

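Dusp4 in Cd4CreTet2KO mice is marked for a closer look because the 2 cell types moved in opposite directions: all 4 CD8 libraries lay below the mean of the CD8 controls and all 3 CD4 libraries above the mean of the CD4 controls on the log2 scale. The difference of effects, CD8 minus CD4, was -2.52 (SE 0.83), and limma's test of that difference gave an adjusted p = 0.614, so it did not pass. Over each library left out it ranged from -2.90 to -1.98, and with the animal as a block it was -2.46 (limma adjusted p = 0.387). CD8 Cd4CreTet2KO replicates 1 and 2, at 20.9 and 4.93 RPKM, are the macrophage-marked libraries, and the difference of effects was not fitted without both. The fold change within CD8 cells was smaller without them, as given above. The 2 Cd4CreTet2KO animals that gave both cell types had log2 ratios of CD8 to CD4 of -2.26 and -1.51, but 1 of the 3 Vav1CreTet2KO animals also had -1.51, and the 3 controls ranged from -0.46 to 0.73. CD8 Cd4CreTet2KO was the only group of more than 3 libraries, and for none of the 6 members did 1 library stand out from the other 3 by Dixon's ratio. That ratio looks at 1 end value at a time. It therefore cannot single out 2 low libraries together, such as the macrophage-marked ones for Dusp2.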

How the results depend on the processing

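Of 300 member fold changes under settings that kept all libraries or left out both macrophage-marked ones, 281 kept their sign and side of the threshold, 4 passed it and 15 turned sign; with single libraries left out, 354 of 378 kept both, 1 passed and 23 turned. The cause was not tested. The number of members called rose from 0 to 1 in CD4 cells with DESeq2 and with no filter, for Vav1CreTet2KO against Tet2fl/fl (Dusp1) and against Cd4CreTet2KO (Dusp4), and ranged from 0 to 1 over left-out libraries in the former; in the other comparisons it was 0 under every setting run. Fitting the replicate number as a block called 0 members in CD8 and CD4 cells, with Dusp1 at -1.30 for CD4 Vav1CreTet2KO (edgeR adjusted p = 0.164), and the block by animal called 0 members; same-numbered libraries of a cell type had correlations of deviations of -0.10 to 0.13, so they share only a number. All 36 group levels moved by less than 1 SD when RPKM was rescaled.

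For CD8 Cd4CreTet2KO against Tet2fl/fl, Dusp10 turned to 0.11 with rescaled RPKM, and on recovered reads to 0.36 (edgeR) and 0.34 (DESeq2), and without both macrophage-marked libraries Dusp10 was 0.73 and Dusp5 0.20. Between the CD8 knockouts Dusp2 was -0.0353, -0.0622 and -0.0472 under the former 3 settings, and without the marked libraries Dusp1 was -0.0792, Dusp2 -0.66, Dusp4 -0.26 and Dusp10 -0.43. With limma on RPKM in CD4 cells Dusp10 was -0.00226 for Vav1CreTet2KO against Tet2fl/fl and Dusp6 -0.10 between the knockouts. The difference of Cd4CreTet2KO effects for Dusp1 was 0.0532 with edgeR. Over left-out libraries the ranges that crossed 0 were, between the CD4 knockouts, -0.33 to 0.0846 for Dusp2, -0.21 to 0.26 for Dusp5 and -0.41 to 0.60 for Dusp6; for CD4 Vav1CreTet2KO, -0.16 to 0.33 for Dusp10 and -0.14 to 0.87 for Dusp6; for CD8 Cd4CreTet2KO, -0.43 to 0.22 for Dusp10; between the CD8 knockouts, -0.25 to 0.58 for Dusp2, -0.17 to 1.13 for Dusp4 and -0.95 to 0.44 for Dusp6; for CD8 Vav1CreTet2KO, -0.00322 to 0.50 for Dusp5; and in the differences of effects, -0.37 to 0.0694 for Dusp1 (Cd4CreTet2KO), -0.55 to 0.28 for Dusp2 and -1.16 to 0.14 for Dusp4 (Vav1CreTet2KO).

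Counts of all genes called moved more. For CD8 Vav1CreTet2KO, 148 became 88 (pseudocount 0.1), 48 (no filter), 91 (edgeR), 809 (DESeq2), 98 (compared groups only), 90 (block) and 0 to 211 over left-out libraries. For CD8 Cd4CreTet2KO, 52 became 12, 3, 64, 542, 279, 0 and 0 to 40 under the same settings, and 0 without the marked libraries; 7 higher and 45 lower became 22 and 49 with rescaled RPKM. For CD4 Vav1CreTet2KO, 1 became 454 (DESeq2), 383 (no filter), 0 (limma), 3 (block) and 0 to 819. For CD4 Cd4CreTet2KO, 4 became 26, 37, 2, 3 and 0 to 4, and 8 with compared groups only. Between the CD4 knockouts, 9 became 405, 403, 4, 13 and 2 to 719, and 3 with compared groups only, and between the CD8 knockouts 0 became 62 with DESeq2, 2 with compared groups only and 0 to 1 over left-out libraries. The 0 and 7 calls in the differences of effects for Vav1CreTet2KO and Cd4CreTet2KO became 1 and 2 (pseudocount 0.1), 8 and 7 (rescaled RPKM), 4 and 2 (edgeR), 8 and 8 (block), and 0 to 153 and 0 to 5 over left-out libraries. Depth limits CD4 Vav1CreTet2KO replicate 1, with 707866 reads on genes.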
